A study of Mus musculus with 2 samples.

Results

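The collagen genes of the mouse ureter are described here, taken as every gene whose array name is Col, a number, a and a number, on probes that are no control spots and are present on both arrays. The rule found 41 genes, measured by 61 probes, of 31693 genes on the array. They comprise 8 fibrillar collagens, 9 collagens of the basement membrane or its adjoining zone and 6 fibril-associated collagens with interrupted triple helices (FACIT). The others are 7 collagens best known from cartilage, 7 beaded filament or other network-forming collagens and 4 transmembrane collagens. Each gene is in a single class. The type IX genes therefore count with cartilage and not as FACIT, and those of types II and XI with cartilage and not as fibrillar.

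Ureters of NMRI mouse embryos at embryonic stage E14.5 were dissected, and total RNA of the group named Bmp4cKO was compared with total RNA of controls on 2 two-colour arrays. The Bmp4cKO genotype is given as Tbx18(cre/+);Bmp4(fl/fl), in which a cre recombinase driven from the Tbx18 gene, active in the ureteric mesenchyme, removes floxed Bmp4, a secreted bone morphogenetic protein. The control genotype is given as Tbx18(+/+);Bmp4(fl/?), so controls carry at least 1 floxed Bmp4 allele but no cre, and the groups differ in the Tbx18 allele as well. On replicate 1, labelled female, the Bmp4cKO RNA was in the green channel and the control RNA in the red; on replicate 2, labelled male, the dyes were swapped. The labels do not say whether embryos were pooled for an RNA, so p-values measure only the spread between these arrays. In whole ureters, fewer cells of a type and less RNA per cell cannot be told apart.

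The targeted gene went against the label. The Bmp4 probe above background had normalized intensities of 75598 and 61938 in the RNA labelled Bmp4cKO, against 9191 and 4719 in the RNA labelled control, a mean log2 ratio of 3.38 (limma adjusted p = 0.016). The labels do not state where the floxed stretch lies, so whether this probe lies within it is not known. The deposited fold values had the sign opposite to the dye labels on both arrays. The cause of the Bmp4 direction was not tested. Tbx18, of which 1 allele carries cre in the Bmp4cKO genotype, had a log2 ratio of 0.97 (adjusted p = 0.040). In replicate 2, labelled male in both channels, the Y-linked gene Ddx3y had an intensity of 65.7 in the RNA labelled Bmp4cKO, not well above background, against 5638 in the RNA labelled control, and Xist, on its brighter probe, read 3757 in the RNA labelled Bmp4cKO, against 232 in the RNA labelled control, so the RNAs of that array differed in sex signal. All ratios below are log2 values with the RNA labelled Bmp4cKO on top and the RNA labelled control below the line. "Higher" therefore means in the same direction as Bmp4 and "lower" the opposite one, and every direction would turn if the labels of the RNAs were exchanged.

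Collagens are trimers of alpha chains wound into a triple helix, in which every helical triplet of residues carries a glycine. Fibrillar collagens form the cable-like fibrils of connective tissue, and FACIT collagens sit on their surface. Type IV chains form the sheet of the basement membrane, which underlies the urothelium and surrounds smooth muscle cells and vessels. In the developing ureter the mesenchyme around the epithelial tube separates into lamina propria, smooth muscle and adventitia, each with its own collagen-rich matrix.

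The genes of type IV collagen lie in head-to-head pairs, and 4 of their promoter windows are shown because both members of each pair had ratios below 0 on both arrays. The windows run from 250 bases before to 50 bases after the gene's start on the gene's own strand (RefSeq, GRCm38.p6), 5′ to 3′. Capitals mark GGGCGG or its reverse complement CCGCCC, the core letters of a GC box. They are Col4a1 (chr8:11312777-11313076, minus strand), Col4a2 (chr8:11312555-11312854, plus strand), Col4a5 (chrX:141475169-141475468, plus strand) and Col4a6 (chrX:141474027-141474326, minus strand).

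Col4a1: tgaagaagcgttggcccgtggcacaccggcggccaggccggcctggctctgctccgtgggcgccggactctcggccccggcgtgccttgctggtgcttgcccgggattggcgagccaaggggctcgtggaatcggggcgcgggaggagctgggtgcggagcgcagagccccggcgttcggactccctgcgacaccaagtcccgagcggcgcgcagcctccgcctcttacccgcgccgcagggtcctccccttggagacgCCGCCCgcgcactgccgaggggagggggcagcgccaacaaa
Col4a2: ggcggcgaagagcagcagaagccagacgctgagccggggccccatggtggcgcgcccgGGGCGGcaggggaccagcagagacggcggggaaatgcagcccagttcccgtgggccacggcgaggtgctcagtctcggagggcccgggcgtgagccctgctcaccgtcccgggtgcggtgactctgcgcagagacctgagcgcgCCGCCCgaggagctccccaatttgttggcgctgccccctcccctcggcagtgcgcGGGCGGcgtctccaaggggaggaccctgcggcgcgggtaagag
Col4a5: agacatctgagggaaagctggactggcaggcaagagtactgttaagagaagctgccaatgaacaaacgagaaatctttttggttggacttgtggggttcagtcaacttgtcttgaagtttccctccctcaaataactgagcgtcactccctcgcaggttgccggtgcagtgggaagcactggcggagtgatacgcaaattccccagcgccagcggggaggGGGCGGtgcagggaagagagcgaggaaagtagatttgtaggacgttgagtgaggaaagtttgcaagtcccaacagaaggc
Col4a6: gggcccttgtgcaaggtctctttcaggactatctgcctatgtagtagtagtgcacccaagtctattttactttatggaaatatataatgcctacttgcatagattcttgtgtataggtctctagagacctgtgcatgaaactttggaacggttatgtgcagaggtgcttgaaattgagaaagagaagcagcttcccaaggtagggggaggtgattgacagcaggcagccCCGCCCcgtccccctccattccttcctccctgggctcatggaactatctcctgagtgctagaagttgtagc

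The annotated starts of Col4a1 and Col4a2 lie 21 bases apart. That of Col4a1, on the minus strand, has the higher coordinate, so the annotated 5′ ends of these genes overlap. Their windows share 78 bases, read on opposite strands, so that the CCGCCC of Col4a1 is the last GGGCGG of Col4a2. The starts of Col4a5 and Col4a6 lie 1343 bases apart without such an overlap, and their windows share none. Of the 4 windows, Col4a2 holds 3 copies of the motif on either strand and each of the others 1. The same letters occur on either strand in 35.7% of 32851 promoter windows of this length, so the match is a description only. Base composition separates the pairs, with 74% G and C in Col4a1 and 73.7% in Col4a2 but 52.7% in Col4a5 and 48.3% in Col4a6.

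The glycine repeat itself can be read in 4 of the 61 collagen probes, shown because it is the feature that makes a protein a collagen. Capitals mark the longest run of at least 4 triplets of GG and any base, the glycine codons, at a spacing of 9 bases; shorter runs, as at the start of the Col14a1 probe, are left in lower case. Positions are those of mm9 given in the files. The probes are those of Col14a1 (chr15:55347733-55347792), Col15a1 (chr4:47283786-47283845), Col16a1 (chr4:129756457-129756516) and Col25a1 (chr3:130270497-130270556).

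Col14a1: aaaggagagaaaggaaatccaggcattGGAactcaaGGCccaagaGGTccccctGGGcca
Col15a1: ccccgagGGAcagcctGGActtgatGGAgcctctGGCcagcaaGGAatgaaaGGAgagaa
Col16a1: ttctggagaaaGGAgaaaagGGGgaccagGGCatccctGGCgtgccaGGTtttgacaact
Col25a1: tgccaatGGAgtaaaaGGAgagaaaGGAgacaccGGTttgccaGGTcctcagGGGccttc

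At least 4 such triplets in a row occurred in 39 of all 39429 probes, or 0.0989%. All 4 of these collagen probes had mean log2 ratios below 0, at -0.20 for Col14a1, -0.26 for Col15a1, -0.22 for Col16a1 and -0.55 for Col25a1.

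Of the 41 collagen genes, 37 had a probe well above background and were fitted together with all 21978 genes that passed the same filter. These 37 were well above background in all 4 RNAs, so that none entered through its brighter group alone. None of these 37 genes passed the threshold in limma's fit with Benjamini-Hochberg adjustment over all genes. The count was 0 higher, against 0.887% of all genes called higher, and 0 lower, against 1.02% of all genes called lower. At an unadjusted p under 0.05, 3 collagen genes were higher (7.15% of all genes were) and 14 were lower (7.37% of all genes were). With the background subtracted plainly instead of by normexp, 1 collagen gene, Col9a3, was called higher and 4 were called lower, namely Col4a5, Col6a4, Col8a1 and Col25a1.

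Measured ratios lay below 0 on both arrays for 21 of the 37, where 30.6% of all genes did so, and above 0 on both arrays for 7, where 28.2% did. Both RNAs labelled Bmp4cKO lay below both RNAs labelled control for 18 collagen genes, against 19.6% of all genes, and above them for 4, against 18.8% of all genes. A difference of at least 2-fold on both arrays was reached by 0 collagen genes in the higher direction (0.578% of all genes) and by 0 in the lower direction (0.619% of all genes). The smallest change called for any gene was 1.75-fold. The median ratio of the collagen genes was -0.23, at -0.38 on replicate 1 and -0.18 on replicate 2, beside a median of -0.0092 over all genes. Adjusted p-values under 0.1 were reached by 8 collagen genes, where 4.34% of all genes reached that level.

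**Figure D1:**
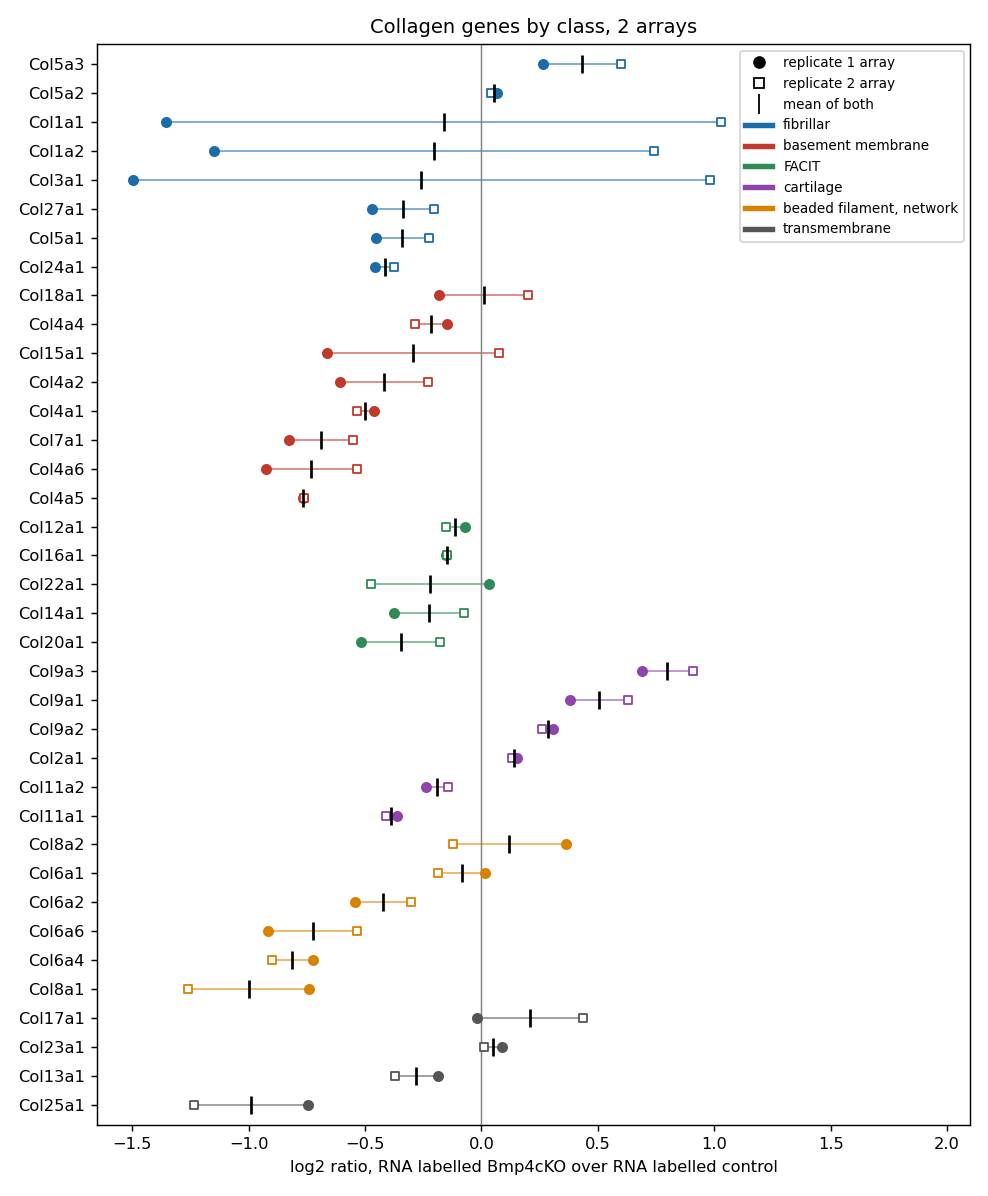
Log2 ratio, RNA labelled Bmp4cKO over control (x axis), for the 37 collagen genes above background (rows, coloured by class), with filled circles for the replicate 1 array, open squares for the replicate 2 array and bars for their mean. The 3 type IX genes lie right of 0 on both arrays, 6 of 8 basement membrane genes left of 0 on both, and Col1a1, Col1a2 and Col3a1 at opposite ends of their lines.

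The basement membrane collagens had the second lowest class median, a log2 ratio of -0.46 over 8 measured genes. Of these, 6 were below 0 on both arrays (30.6% of all genes were) and 0 were above on both (28.2% of all genes). At an unadjusted p under 0.05, 5 were lower (7.37% of all genes). None passed the adjusted threshold. The genes of the head-to-head pairs shown above were picked for ratios below 0 on both arrays, so their shared side is no separate result. On the brightest probes the largest differences were in the X-linked pair.

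Col4a5, the alpha5 chain of type IV collagen, had normalized intensities of 8385 and 9823 in the RNAs labelled Bmp4cKO, against 14272 and 16679 in the RNAs labelled control. The groups did not overlap, and the ratios of the arrays were nearly equal at -0.77 and -0.76, a mean of -0.77 ± 0.0024 (SD, n = 2 arrays; adjusted p = 0.054). Its partner in the pair, Col4a6, which encodes the alpha6 chain, had 1908 and 2858 in the RNAs labelled Bmp4cKO, against 3622 and 4144 in the RNAs labelled control. Both values of the first group lay below both of the second, with ratios of -0.93 and -0.54 (adjusted p = 0.094). The other Col4a6 probe above background had ratios of -0.61 and -0.11, a mean of -0.36, so the size of the difference depends on the probe. The brightest Col4a5 probe lies at chrX:138123547-138123606 and that of Col4a6 at chrX:137599990-137600049 in mm9. Both genes are on the X chromosome, where the 843 measured genes had median ratios of 0.0032 on replicate 1 and -0.0057 on replicate 2, the array whose RNAs differed in sex signal. On replicate 1, where both RNAs had Xist, the ratios were -0.77 for Col4a5 and -0.93 for Col4a6, and on replicate 2 they were -0.76 and -0.54. The part of the sex difference in these ratios was not tested.

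Col4a1 and Col4a2, which encode the alpha1 and alpha2 chains found in nearly every basement membrane, were lower by less than the brightest Col4a5 and Col4a6 probes. Col4a1 had 25992 and 31752 in the RNAs labelled Bmp4cKO, against 35813 and 46000.4 in the RNAs labelled control. Col4a2 had 14229 and 21210.2 in the RNAs labelled Bmp4cKO, against 21676 and 24882 in the RNAs labelled control. For both genes the groups were separate, for Col4a2 by a narrow margin. The mean ratios were -0.50 ± 0.051 for Col4a1 (adjusted p = 0.13) and -0.42 ± 0.27 for Col4a2 (adjusted p = 0.28; SD, n = 2 arrays each).

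Col7a1, the chain of the anchoring fibrils that tie a basement membrane to the stroma below, had 1278 and 1725 in the RNAs labelled Bmp4cKO, against 2267 and 2532 in the RNAs labelled control. The groups were separate on this gene too, at a mean ratio of -0.69 ± 0.19 (SD, n = 2 arrays; adjusted p = 0.085). Col4a4, a chain of the mature glomerular basement membrane, had a mean of -0.22 on its brightest probe but 0.52 on another probe above background, so its direction depends on the probe. Col15a1 and Col18a1, the multiplexin collagens of the basement membrane zone, had opposite signs on the arrays, with means of -0.29 and 0.01. The probe of Col4a3, a further chain of the glomerular network, was not well above background in any RNA.

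Summed marker intensities of cell types that lie on or make basement membranes went both ways. Endothelial, urothelial and smooth muscle sums were higher in the RNAs labelled Bmp4cKO. Sums of kidney markers and of skeletal muscle markers, the latter given further below, were lower. The 8 endothelial markers summed to 87511 and 104178 in the RNAs labelled Bmp4cKO, against 76347 and 73587 in the RNAs labelled control, with all 8 measured, 0 called and 4 higher at an unadjusted p under 0.05. The 8 urothelial markers summed to 94620.3 and 103157 in the RNAs labelled Bmp4cKO, against 34287 and 30506 in the RNAs labelled control, with 5 of 8 called higher. For 7 of 8 smooth muscle markers measured, the sums were 83219 and 106438 in the RNAs labelled Bmp4cKO, against 50735 and 40220.2 in the RNAs labelled control, and 3 were called higher; Lmod1 was not well above background. The kidney markers, of which 6 of 8 were measured, summed to 41338 and 46834 in the RNAs labelled Bmp4cKO, against 48395 and 59969 in the RNAs labelled control, with Wt1 and Ret called lower and Slc12a1 and Umod not well above background. The part of these cell types in the collagen values was not tested.

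The beaded filament and other network collagens had the lowest class median, -0.57 over 6 measured genes, and 4 of the 6 were below 0 on both arrays with unadjusted p-values under 0.05. Of all genes, 30.6% were below 0 on both arrays and 7.37% were lower at an unadjusted p under 0.05. Col8a1, a short-chain network collagen of vessels and other smooth muscle tissues, had 267 and 204 in the RNAs labelled Bmp4cKO, against 446 and 489 in the RNAs labelled control. The groups did not overlap, and the mean ratio of -0.999 ± 0.37 (SD, n = 2 arrays; adjusted p = 0.063) was the lowest of any collagen gene in this fit. Col8a2, which encodes the other type VIII chain, gave a direction that depends on the probe. On its brightest probe it had 19865 and 18589.8 in the RNAs labelled Bmp4cKO, against 15445 and 20265 in the RNAs labelled control, and its arrays were of opposite sign, with a mean of 0.12. Its other probe above background had a mean of -0.17, below 0 on both arrays.

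Type VI collagen forms beaded microfilaments, and its chains differed in the size of their ratios. Col6a4 and Col6a6 lie on chromosome 9, on either side of Col6a5, and encode the chains that can stand in for alpha3. Col6a4 had 304 and 276 in the RNAs labelled Bmp4cKO, against 503 and 516 in the RNAs labelled control, a mean ratio of -0.81 ± 0.12 (SD, n = 2 arrays; adjusted p = 0.054). Col6a6 had 1976 and 2559 in the RNAs labelled Bmp4cKO, against 3728 and 3702 in the RNAs labelled control, a mean ratio of -0.72 ± 0.27 (SD, n = 2 arrays; adjusted p = 0.095). Neither gene's groups overlapped, and the other probe of Col6a6 also had a mean of -0.72. The other probe of Col6a4 did not pass the filter and had a mean of 0.08. It was well above background only in the replicate 1 RNA labelled Bmp4cKO. The gene between Col6a4 and Col6a6 is on the array under the name Gm7455 and so falls outside the naming rule. That gene was looked up after the values of its neighbours were seen. Col6a5, by its RefSeq name, had 391 and 452 in the RNAs labelled Bmp4cKO, against 786 and 857 in the RNAs labelled control. It fell by 0.97 on the log2 scale (adjusted p = 0.036) and passed the threshold, which no other type VI chain did in this fit.

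The chains of the common type VI trimer gave smaller values. Col6a2 had 15669 and 18356 in the RNAs labelled Bmp4cKO, against 22823 and 22644 in the RNAs labelled control, with separate groups and a mean ratio of -0.42 (adjusted p = 0.23). Col6a1 had 71219.8 and 67177 in the RNAs labelled Bmp4cKO, against 70525 and 76378 in the RNAs labelled control, which overlap. A probe annotated in the files as the alpha3 chain of type VI, with a transcript name in place of a gene name, had a mean ratio of -0.20 (adjusted p = 0.54). Col28a1, a von Willebrand factor A domain collagen, was not well above background.

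**Figure D2:**
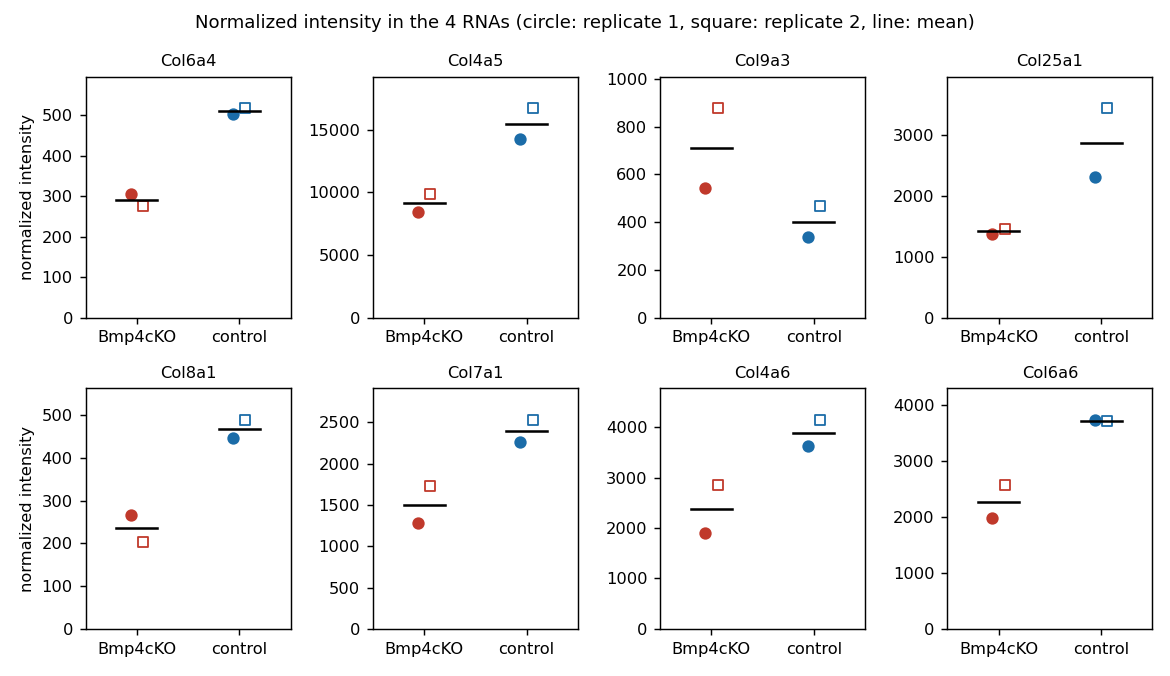
Normalized intensity (y axis, linear, from 0) in the RNAs labelled Bmp4cKO (left of each panel) and the RNAs labelled control (right) for the 8 collagen genes with adjusted p under 0.1; circles are replicate 1, open squares replicate 2 and lines the mean. Col9a3 is higher and the other 7 genes are lower in the RNAs labelled Bmp4cKO, with no overlap in any panel.

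Among the transmembrane collagens, Col25a1 had the ratio furthest from 0. It encodes a membrane-bound collagen known from neurons and, in mouse, from developing muscle that is being innervated. It had 1382 and 1461 in the RNAs labelled Bmp4cKO, against 2316 and 3437 in the RNAs labelled control. The groups did not overlap, with ratios of -0.75 and -1.23, a mean of -0.99 ± 0.35 (SD, n = 2 arrays; adjusted p = 0.060). Its 4 probes ranged from -0.99 to -0.50, all below 0. The probe printed above lay towards the upper end of that range, and the brightest probe at the lower end.

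Beside Col25a1, some neuronal genes were lower and skeletal muscle markers had lower sums. Tubb3, a neuronal tubulin, had 616 and 450.2 in the RNAs labelled Bmp4cKO, against 1547 and 1482 in the RNAs labelled control, and Elavl3, a neuronal RNA-binding protein, had 281 and 259 in the RNAs labelled Bmp4cKO, against 493 and 509.9 in the RNAs labelled control; both were called lower. The 7 of 8 skeletal muscle markers measured summed to 2927 and 3545 in the RNAs labelled Bmp4cKO, against 4112 and 4359 in the RNAs labelled control, with Myog called lower and Myf5 not well above background. Their part in the Col25a1 value was not tested. Of the other transmembrane collagens, Col13a1, found at focal adhesions and the neuromuscular junction, had 252 and 229.5 in the RNAs labelled Bmp4cKO, against 287 and 297 in the RNAs labelled control. That separated the groups at a mean of -0.28 ± 0.13 (SD, n = 2 arrays; adjusted p = 0.41). Col23a1 was at 0.05, and Col17a1, the hemidesmosome collagen of stratified epithelia, had ratios of -0.02 and 0.44.

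The collagens best known from cartilage had the only positive class median, 0.21 over 6 measured genes, with 4 above 0 and 2 below 0 on both arrays. The 4 were Col2a1 and the 3 genes of type IX collagen, which together encode its heterotrimer. Col9a3 had 545 and 876 in the RNAs labelled Bmp4cKO, against 338 and 467 in the RNAs labelled control. The groups did not overlap, at ratios of 0.69 and 0.91, a mean of 0.80 ± 0.15 (SD, n = 2 arrays; adjusted p = 0.057).

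Col9a1 had 36072 and 44582 in the RNAs labelled Bmp4cKO, against 27747 and 28824 in the RNAs labelled control, a mean ratio of 0.50 ± 0.18 (SD, n = 2 arrays; adjusted p = 0.16). Its second, dimmer probe was at 0.02. Col9a2 had 25323 and 27189.6 in the RNAs labelled Bmp4cKO, against 20464 and 22710.4 in the RNAs labelled control, a mean ratio of 0.28 ± 0.034 (SD, n = 2 arrays; adjusted p = 0.37). For each of the 3 genes the RNAs labelled Bmp4cKO lay above both others, while the size of the ratio differed among chains of the same trimer.

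Col2a1, the fibril collagen that type IX coats in cartilage, had 3681 and 5457 in the RNAs labelled Bmp4cKO, against 3314 and 4982 in the RNAs labelled control. These overlap, at ratios of 0.15 and 0.13. The minor fibril collagen of type XI pointed the other way. Col11a1 had 825 and 1013 in the RNAs labelled Bmp4cKO, against 1062 and 1347.5 in the RNAs labelled control, a mean ratio of -0.39 ± 0.034 (SD, n = 2 arrays; adjusted p = 0.22). Col11a2 was at -0.19 with overlapping groups. Col10a1, the collagen of hypertrophic chondrocytes, was not well above background on either of its 2 probes.

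Of the chondrocyte markers that are no collagens, 12 of 16 were measured, with a median of 0.09, 0 called and 2 higher at an unadjusted p under 0.05. The medians of the arrays lay on opposite sides, at 0.16 on replicate 1 and -0.06 on replicate 2. On both arrays 5 markers were above 0 and 2 below, and 5 had opposite signs. Matn1, Comp, Snorc and Ucma were not well above background in enough RNAs to be fitted. The smaller marker list, with 5 of 8 measured, summed to 4688 and 4695 in the RNAs labelled Bmp4cKO, against 3449 and 3551 in the RNAs labelled control, at a median log2 ratio of 0.06. Hapln1 carried that difference: without it the sums were 1797 and 1467 in the RNAs labelled Bmp4cKO, against 1576 and 1556 in the RNAs labelled control, which point opposite ways on the arrays. Matn4 was at -0.41, with -0.06 and -0.75 on the arrays, and Cnmd, a cartilage glycoprotein, was at -0.19. Hapln1, the link protein of cartilage proteoglycan, was at 0.66 (adjusted p = 0.071), and Ihh, a hedgehog signal of cartilage, at 1.82 (adjusted p = 0.067). The part of cartilage cells in the type IX values was not tested.

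The fibrillar collagens had a median of -0.23 over 8 genes, but the medians of the arrays lay on opposite sides, at -0.46 on replicate 1 and 0.32 on replicate 2. The difference came with 3 genes, the main fibril collagens of connective tissue. Col1a1 had 56044 and 173692 in the RNAs labelled Bmp4cKO, against 143226 and 85201 in the RNAs labelled control. Col1a2 had 86604 and 192472 in the RNAs labelled Bmp4cKO, against 192194 and 115237 in the RNAs labelled control. Col3a1 had 66573 and 189477 in the RNAs labelled Bmp4cKO, against 187736 and 96034 in the RNAs labelled control. For each gene the RNA in the red channel was the high one on both arrays, whichever its label.

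Turned to the dyes, log2 red over green averaged 1.19 for Col1a1, 0.95 for Col1a2 and 1.24 for Col3a1, and turned to the labels their mean ratios were -0.16, -0.21 and -0.26. No gene of the array passed limma's threshold for red over green (0 called, 483 at an unadjusted p under 0.05, among them these 3 and no other collagen gene). Their probes were at the 97.1st, 99.1st and 98.1st percentile of brightness. The 638 genes whose probes were at least as bright as that of Col1a1 had a median red over green of 0.49, and 86.2% of them had ratios of opposite sign on the arrays, against -0.012 and 39.8% for dimmer genes. The arrays gave opposite directions for Col1a1, Col1a2 and Col3a1, and the SDs about their means were 1.68, 1.34 and 1.75 (n = 2 arrays each).

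**Figure D3:**
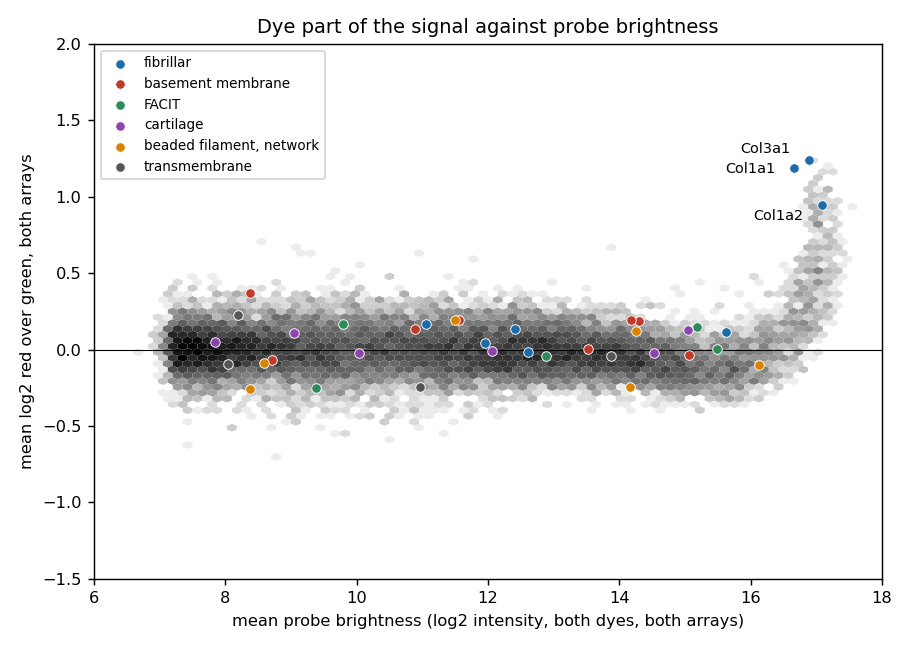
Mean log2 red over green of both arrays (y axis) against mean probe brightness (x axis, log2 intensity), with all 21978 genes in grey (darker where more genes fall) and collagen genes coloured by class. Col1a1, Col1a2 and Col3a1 lie in the upturn of the brightest probes, between 0.95 and 1.24, and the other collagen genes between -0.26 and 0.37.

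The remaining fibrillar genes had the same sign on both arrays. Col5a3, a type V chain, had 2249.8 and 2699 in the RNAs labelled Bmp4cKO, against 1873 and 1783 in the RNAs labelled control, separate groups with a mean ratio of 0.43 ± 0.24 (SD, n = 2 arrays; adjusted p = 0.25). Col24a1, a minor fibrillar collagen known from bone, had 3367 and 3504 in the RNAs labelled Bmp4cKO, against 4619.8 and 4546 in the RNAs labelled control, separate groups with a mean ratio of -0.42 ± 0.057 (SD, n = 2 arrays; adjusted p = 0.20). These were the furthest from 0 in the class, one on each side. Col5a1, which nucleates fibrils, was at -0.34 with overlapping groups. Col27a1 was at -0.34 with separate groups, and Col5a2 was at 0.05. The type V chains thus lay on different sides of 0.

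Fibroblasts are the main source of fibrillar collagen, and their markers were mostly above 0. All 8 fibroblast and adventitia markers were measured, with a median of 0.46, 5 of them higher at an unadjusted p under 0.05 and Aldh1a2 called lower. They summed to 388908 and 448062 in the RNAs labelled Bmp4cKO, against 455780 and 327509 in the RNAs labelled control. Without Dcn, whose arrays disagree in sign, the sums were 266072 and 244528 in the RNAs labelled Bmp4cKO, against 259135 and 252202 in the RNAs labelled control. With or without Dcn these sums overlap between the groups. The 8 ureteric mesenchyme markers summed to 225810 and 197445 in the RNAs labelled Bmp4cKO, against 155654 and 172029 in the RNAs labelled control, with Tbx18 and Gata6 called higher. The 8 leukocyte markers had a median of -0.02 and 0 called, with 1 lower at an unadjusted p under 0.05, and overlapping sums of 24569 and 20120.1 in the RNAs labelled Bmp4cKO, against 22831 and 23128 in the RNAs labelled control. The part of these cell types in the collagen values was not tested either.

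The genes of the FACIT class were close together, with a median of -0.22 over 5 measured genes. Of these, 4 were below 0 on both arrays (30.6% of all genes were) and 0 had an unadjusted p under 0.05. The type IX genes, also FACIT collagens but counted with cartilage, lay above 0. Col20a1 had 666 and 923 in the RNAs labelled Bmp4cKO, against 953 and 1044 in the RNAs labelled control, a mean ratio of -0.35 ± 0.24 (SD, n = 2 arrays; adjusted p = 0.35). Col14a1, a fibril-surface collagen of dense connective tissue, had 30463 and 38808 in the RNAs labelled Bmp4cKO, against 39517 and 40885 in the RNAs labelled control, a mean ratio of -0.23 ± 0.21 (SD, n = 2 arrays; adjusted p = 0.56). In both genes the groups were separate by a small margin. Col16a1 was at -0.15 and Col12a1 at -0.11. Col22a1, known from tissue junctions such as that of muscle and tendon, had 0.03 and -0.47 on the arrays. Col19a1 was not well above background.

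**Figure D4:**
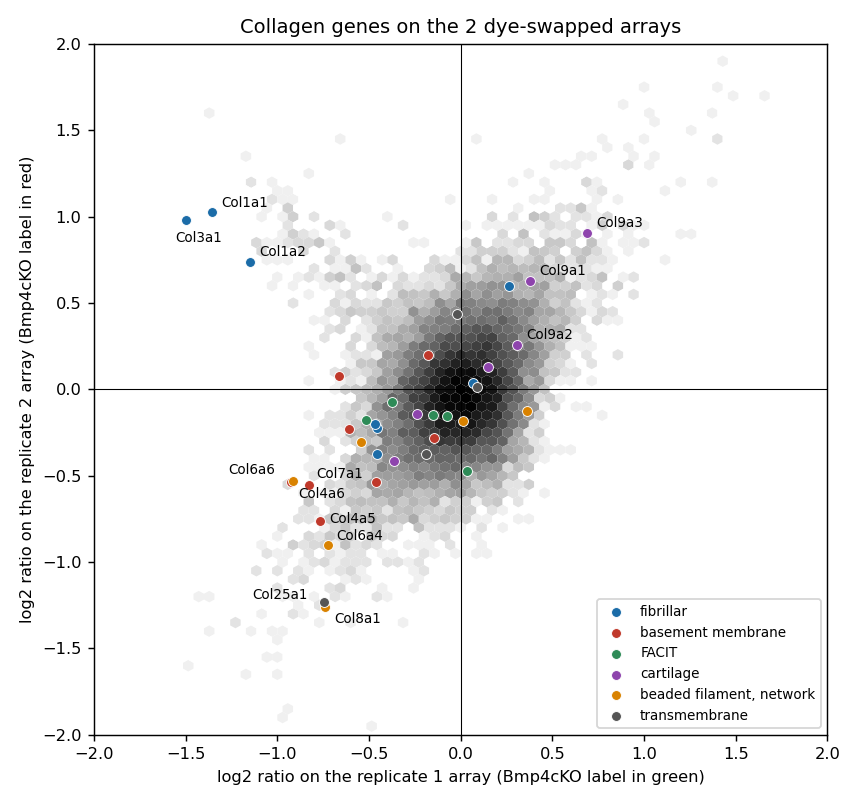
Log2 ratio on the replicate 2 array (y axis) against that on the replicate 1 array (x axis), both with the RNA labelled Bmp4cKO on top, with all genes within the axes in grey and collagen genes coloured by class. Most collagen genes with large ratios lie in the lower left, type IX genes in the upper right, and Col1a1, Col1a2 and Col3a1 alone far into the upper left.

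The plot of one array against the other shows how far the arrays gave the same ratios. Across all 21978 genes Pearson's r was 0.48 and Spearman's rho 0.31, over genes that are not independent replicates. Of the collagen genes, 9 had opposite signs on the arrays, and their mean ratios lay between -0.29 and 0.21. The median SD of a collagen gene between arrays was 0.18. Of the 12 collagen genes with several probes above background, Col4a4 and Col8a2 had probes of opposite sign.

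Genes that fold and modify collagen in the endoplasmic reticulum had a median near that of all genes. All 23 on the list were measured, with a median of -0.03, 0 called and 1 in each direction at an unadjusted p under 0.05. P4ha2, a subunit of prolyl 4-hydroxylase, which makes the hydroxyproline that holds the helix together, had 6430.5 and 9312 in the RNAs labelled Bmp4cKO, against 4494 and 5179.6 in the RNAs labelled control (mean log2 ratio 0.68, adjusted p = 0.097). P3h2, a prolyl 3-hydroxylase that acts on type IV collagen, had 1148 and 1186 in the RNAs labelled Bmp4cKO, against 1692 and 1698 in the RNAs labelled control (mean log2 ratio -0.54, adjusted p = 0.11). The groups were separate for each of them, in opposite directions. Summed over the list, intensities were 617428 and 633859 in the RNAs labelled Bmp4cKO, against 626885 and 618485 in the RNAs labelled control.

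Procollagen processing and cross-linking genes, 17 of 18 measured, had a median of -0.01 and 0 called, with 3 in each direction at an unadjusted p under 0.05. Fmod, a small proteoglycan on collagen fibrils, had 2805 and 4024.5 in the RNAs labelled Bmp4cKO, against 2165 and 2034 in the RNAs labelled control (mean log2 ratio 0.68, adjusted p = 0.17). Loxl4, a lysyl oxidase of the family that cross-links collagen, had 906 and 1079 in the RNAs labelled Bmp4cKO, against 1493 and 1530 in the RNAs labelled control (mean log2 ratio -0.61, adjusted p = 0.10). Both genes had separate groups. Dcn and Sparc, with very bright probes, had opposite signs on the arrays as Col1a1 did.

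Of the collagen receptors, 10 of 12 were measured, with a median of -0.13, 0 called, and 1 higher and 2 lower at an unadjusted p under 0.05. Adgrg1, an adhesion receptor for type III collagen, was at -0.67 (adjusted p = 0.073). Itga11, the fibrillar collagen integrin of mesenchymal cells, was at -0.48 (adjusted p = 0.14). Both had separate groups. Itga2 and Gp6 were not well above background in enough RNAs to be fitted.

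**Figure D5:**
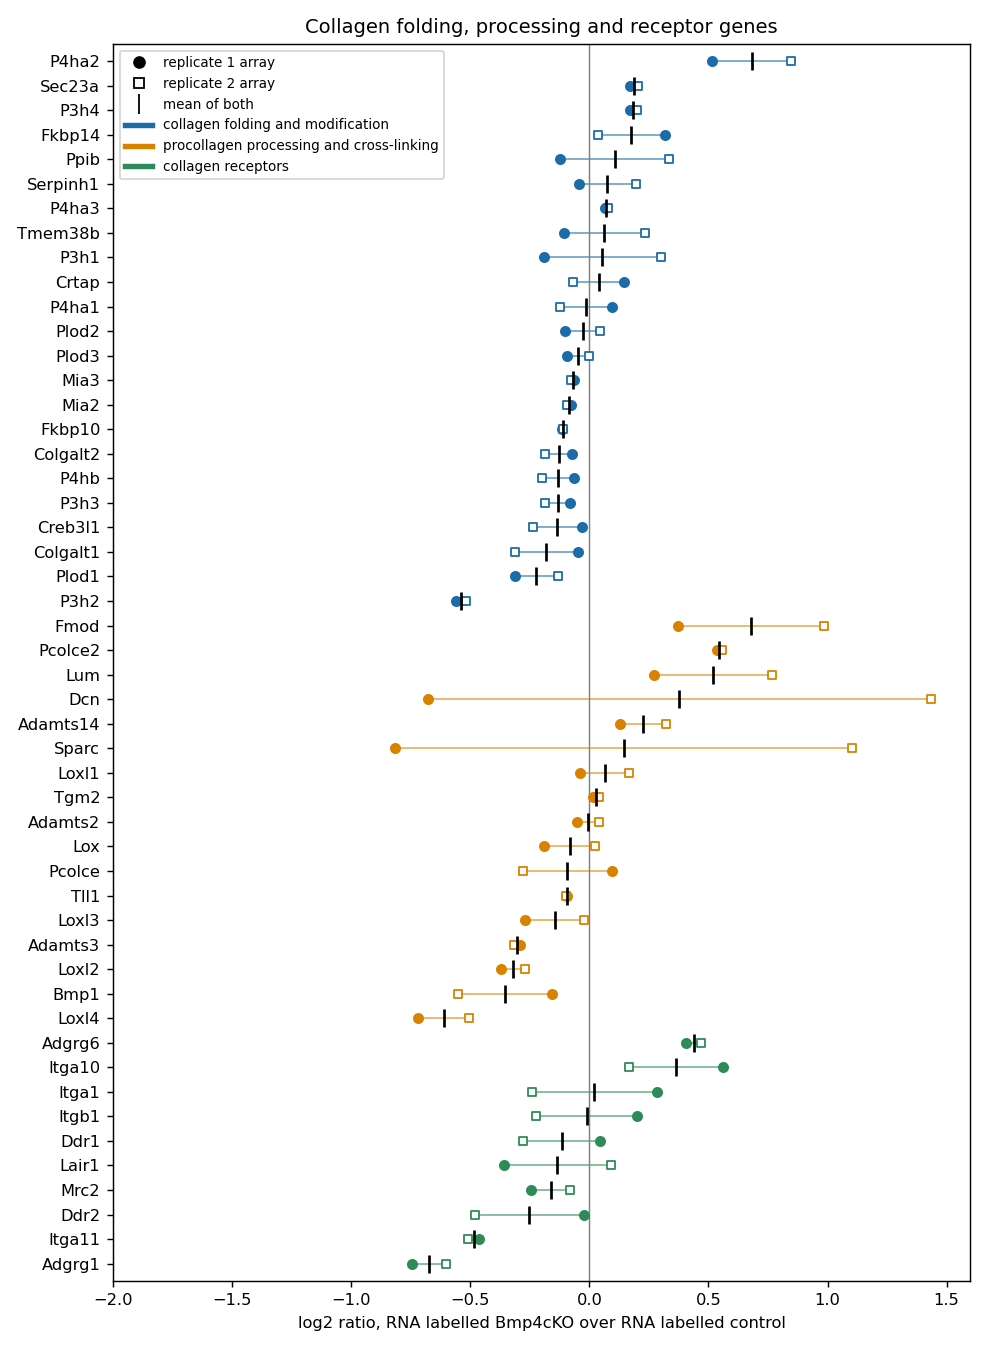
Log2 ratio, RNA labelled Bmp4cKO over control (x axis), for genes of collagen folding, processing and cross-linking, and reception (rows, coloured by list), with filled circles for replicate 1, open squares for replicate 2 and bars for their mean. Folding genes cluster at 0 except P4ha2 and P3h2, while Dcn and Sparc have opposite signs on the arrays.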

How the data were processed

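Total RNA was labelled with AlexaFluor555 (green) or AlexaFluor647 (red) and hybridised to 2 arrays. Per the file headers and the submitters' processing notes, the authors used Agilent Feature Extraction 10.7.3.1 and deposited spot and background intensities, processed signal intensities and a log10 ratio of red over green; positions are mm9. The deposited value table holds a score per probe, a signed fold that matched the size of the deposited log ratio to 0.01 on the log2 scale for 99.7% and 99.6% of 26297 probes; both column medians are 1. Its sign was opposite to the dye labels on both arrays, and no source used here states its direction.

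Each array had 44397 spots, 1377 of them controls; 231 and 235 outlier spots were left out, 0 probe spots were saturated, and 68.3% to 73.9% were well above background per channel. Precision is limited by having 2 arrays, which share a slide and a scan.

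In limma 3.58.1 (R 4.3.3), mean spot and median background intensities were corrected by normexp (offset 50) and normalized by loess within each array, with control spots at weight 0. A normalized intensity is a channel's value after these steps and a quantile normalization of mean log brightness between the arrays, which leaves the ratios unchanged. Sums and statements on whether groups overlap use these intensities. Of 39429 probes, 31001 were named through RefSeq (GRCm38.p6, used for names, neighbours and promoter windows). A probe passed if both Bmp4cKO channels, or both control channels, were well above background, and a gene took its brightest passing probe. Ratios were fitted with lmFit and eBayes (4.03 prior degrees of freedom), with Benjamini-Hochberg adjustment over all 21978 genes at 0.05. Each array pairs 1 RNA of each group, so the ratio itself is the paired value. The script was tested on simulated ratios.

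Collagens called by the threshold, those 2-fold on both arrays and the 2 furthest from 0 in each class were named with full values, as were up to 2 genes of each related list; Col1a1, Col1a2, Col3a1, Col4a1, Col4a2, Col7a1, Col6a6, Col6a5 and others were added after their values were seen. The collagen genes, classes and lists were chosen with earlier results of these data known. Promoter windows were given for 33 of the 41 genes. Whether a probe lies in an exon or a UTR was not analysed here. The marker list of Schwann cells and neurons is not reported here as a whole.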

Additional observations from a re-analysis of the deposited data

Results flagged for a closer look

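For 9 collagen genes the log2 ratio was above 0 on one array and below 0 on the other. The arrays carry different sex labels and opposite dye orientations, which cannot be told apart here, and the difference between them was not tested. Replicate 2 minus replicate 1 was 2.38 for Col1a1, 1.89 for Col1a2 and 2.48 for Col3a1, the bright fibrillar genes that were high in the red channel of both arrays. It was 0.74 for Col15a1, 0.38 for Col18a1 and 0.46 for Col17a1. In the other direction it was -0.51 for Col22a1, -0.49 for Col8a2 and -0.20 for Col6a1. Over all genes, 41.2% had opposite signs on the arrays.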

How the results depend on the processing

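Of 549 values of single collagen genes over 15 settings, 521 kept their direction and their side of the threshold. A further 25 passed the threshold with the same direction, in 8 genes, and 3 reversed. Settings that changed only the filter or the fit reused the main ratios, so direction could not change there for a gene that kept its probe. Median centring and the eBayes trend called 0 genes of the array and no normalization 1, so staying uncalled there was nearly fixed in advance. The count of 521 is therefore no measure of robustness. The reversed values were Col4a4 at 0.15 and Col8a2 at -0.025 with the mean of all passing probes, and Col6a1 at 0.0069 with median centring. Collagen genes called higher and lower numbered 1 and 7 with the processed signals, 1 and 4 with plain subtraction and with robust eBayes, 1 and 2 with no filter on dim probes and with the authors' deposited value table turned to the dye labels, and 1 lower (Col8a1) with separate channels fitted for group and dye and no replicate block. The processed signals and that table each had 2 genes at least 2-fold lower on both arrays. Folding and processing genes called were 2 higher and 2 lower with the processed signals, and 1 higher with plain subtraction and with that table. With no normalization 0 collagen genes were above and 3 below 0 on both arrays. Class medians moved with the processed signals (FACIT -0.23, cartilage 0.19, transmembrane -0.18), plain subtraction (FACIT -0.23), median centring (all genes 0.010, FACIT -0.13, cartilage 0.26), no normalization (FACIT -0.16, cartilage 0.24), no filter (FACIT -0.19, cartilage 0.14), a processed signal of at least 100 (cartilage 0.28, transmembrane -0.47), the mean of probes (FACIT -0.21) and the authors' table (FACIT -0.23, transmembrane -0.17). With replicate 1 or replicate 2 left out, which leaves 1 array and no test, the collagen median ranged from -0.38 to -0.18, that of fibrillar collagens from -0.46 to 0.32, basement membrane from -0.64 to -0.41, FACIT from -0.15 to -0.15, beaded filament and network from -0.63 to -0.42 and transmembrane from -0.18 to -0.10; genes above 0 numbered 10 to 13, below 0 24 to 27, at least 2-fold higher 0 to 1 and at least 2-fold lower 2 to 3. Some class medians not listed above also shifted with the processing. Fibrillar was at -0.10 with median centring and -0.13 with no normalization, against -0.23. Beaded filament and network was at -0.42 with no filter and with a processed signal of at least 100, against -0.57. Basement membrane was at -0.37 with median centring and -0.36 without chromosomes X and Y, against -0.46. The cause of these moves was not tested.

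Over all genes, called counts were 605 higher and 663 lower with the processed signals, 339 and 388 with plain subtraction, 298 and 338 with the authors' table, 0 and 1 without normalization, and 0 and 0 with median centring or an eBayes trend, against 195 and 225. No paired analysis was possible beyond this because each array's ratio already pairs its RNAs. Signal over background was 14.9 and 15.6 in green, 7.14 and 7.58 in red.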

Other observations

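Collagens whose array names do not follow the Col pattern gave values of their own, looked up after the others were seen. Col26a1, on the array as Emid2, had normalized intensities of 18773 and 20997 in the RNAs labelled Bmp4cKO, against 26699 and 31309 in the RNAs labelled control. Its groups were separate, at a mean log2 ratio of -0.54 (adjusted p = 0.11). A second Col6a5 probe was not well above background, at a mean log2 ratio of 0.05. Of 5 probes with a transcript name that the files annotate as a collagen chain, those for chains XII, XVI and XIX were not well above background. The probe for the alpha2 chain of type VI had a mean of -0.04 with overlapping groups, while the named Col6a2 probe was at -0.42.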
